A study of Homo sapiens with 17 samples.

Results

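The 10 genes described here encode enzymes of glycolysis and of the lactate step that follows it: GPI, ALDOA, TPI1, GAPDH, PGK1, PGAM1, ENO1, PKM, LDHA and LDHB. The values are those of the polymerase positions that the deposited tables list inside the GENCODE release 29 span of each gene (GRCh38) and on its strand. There were 581 such entries at 425 distinct positions, of 204137 entries at 158141 positions in all, and 118570 of all entries lay in protein-coding genes.

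HEK293 cells, a line from human embryonic kidney, were permeabilised and given labelled nucleotides, so that engaged RNA polymerases ran on for 0.5, 2, 8 or 32 min. The 3′ ends of the labelled RNA mark where the polymerases stood. The run-on was done with sarkosyl in the buffer, a detergent that removes a large part of the chromatin-bound proteins yet leaves transcribing polymerases active, or in a buffer free of sarkosyl, each as biological duplicates per the series' design text. Apart from the buffer and the run-on time, the labels of these 16 libraries give no difference: all are untreated HEK293 cells from DMEM with serum, with no genetic change. A further sample, labelled as a Trp treatment, was not analysed here. The values are 4 tables, sarkosyl replicates 1 and 2 and sarkosyl-free replicates 1 and 2, each with a pausing time per position fitted by the authors over the run-on times. In the order just given, the glycolysis genes held 141, 143, 187 and 110 entries. Every set of 4 values below follows that order.

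Glycolysis turns glucose into pyruvate through a chain of cytosolic enzymes. GPI, ALDOA and TPI1 rearrange and split the sugar phosphates, and GAPDH, PGK1, PGAM1, ENO1 and PKM carry the steps in which NADH and ATP are made. LDHA and LDHB encode the subunits of lactate dehydrogenase, which interconverts pyruvate and lactate. Most of these genes are highly transcribed in proliferating cell lines, and several are textbook targets of hypoxia-inducible factor and of MYC. RNA polymerase II commonly pauses shortly downstream of a start site before it is released into the gene body, and it also slows at positions further in.

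The tables as a whole set the frame for these genes. They held 48566, 47713, 66089 and 41769 entries, and their median pausing times, as deposited and without a stated unit, were 1.49, 1.34, 2.23 and 8.00. Levels are therefore compared with the other genes of the same table. The sarkosyl tables list no position on the minus strand of chromosome X, which does not touch PGK1 on the plus strand. Of 7 genes expected in HEK293, 5 had entries (31, 32, 33 and 16 in sum), while PAX2 and NEFM had none. VIM alone held 20, 19, 16 and 10 of these, and CDH2 had 0, 0, 6 and 2. Of 7 blood genes 2 had entries, with 0, 1, 1 and 0 in sum, and of 3 hepatocyte genes none had. The read depth behind a position is unknown, so no interval that needs it is given.

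A set of positions close to start sites carries much of what follows, and their sequence context is shown first. Each line gives 21 bases of the sense strand from GENCODE release 29 transcripts (GRCh38), with the listed position in capitals at the centre.
LDHA, 52 bp downstream of the start, chr11:18394605-18394625, plus strand: cgcccccgacGaccgcccgac
LDHA, 63 bp, chr11:18394616-18394636, plus strand: accgcccgacGtgcattcccg
ENO1, 38 bp, chr1:8878638-8878658, minus strand: atctcgccggCtttacgttca
ENO1, 61 bp, chr1:8878615-8878635, minus strand: tcggtgtctgCagcaccctcc
PKM, 58 bp, chr15:72231122-72231142, minus strand: cgtagcccgaGtcggtcagcg
ALDOA, 76 bp, chr16:30065826-30065846, plus strand: aggggtcctgGtgacgagtcc
ALDOA, 86 bp, chr16:30065836-30065856, plus strand: gtgacgagtcCcgcgttctct
LDHB, 75 bp, chr12:21657757-21657777, minus strand: gaggtctccaGagccttctct
LDHB, 79 bp, chr12:21657753-21657773, minus strand: tctccagagcCttctctctcc
TPI1, 95 bp, chr12:6867616-6867636, plus strand: ggcggaagcaGagtctggggg
Distances count from the nearest upstream start in the RefSeq promoter table (GRCh38.p14). All of these lie in the 5′ UTR except the TPI1 position, which lies in a coding exon.

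The first 6 of these positions were listed in all 4 tables. The LDHA windows at 52 and 63 bp overlap, since the positions are 11 bp apart. The bases directly upstream of 3 of these genes are shown because many of their positions near the start recurred: within 150 bp, 3 of 5 LDHA, 4 of 7 ENO1 and 4 of 5 PKM positions were in both sarkosyl tables. Each line gives the 100 bases before the RefSeq start (GRCh38.p14), with matches to GGGCGG or ACGTG on either strand, and the longer CACGTG, in capitals; the PKM run holds a pair of overlapping GGGCGG matches.
LDHA, chr11:18394463-18394562, plus strand: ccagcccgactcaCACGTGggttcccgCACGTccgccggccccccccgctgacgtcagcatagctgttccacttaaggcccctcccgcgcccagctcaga
ENO1, chr1:8878687-8878786, minus strand: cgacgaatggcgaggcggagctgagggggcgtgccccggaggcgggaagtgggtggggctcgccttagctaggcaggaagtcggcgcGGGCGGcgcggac
PKM, chr15:72231191-72231290, minus strand: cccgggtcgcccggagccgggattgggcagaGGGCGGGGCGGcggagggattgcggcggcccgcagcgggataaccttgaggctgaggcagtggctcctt

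Over the 250 bases before each of the 14 RefSeq starts of the 10 genes, both strands searched, the GC box GGGCGG was present in 10 starts of 9 genes, and in 42.6% of all promoters in the table. ACGTG, the core of the hypoxia response element, was present in 8 starts of 6 genes, against 18.5% of all promoters. CACGTG, the E-box that MYC family factors bind and that contains ACGTG, was present in 3 starts (LDHA, GAPDH and ALDOA), against 6.34%. TATAAA was found before the LDHB start only, against 10.7%. These are matches of letters and not measured binding. All 14 RefSeq starts, that of GAPDH included, are internal to the GENCODE spans, so the 250 bases are wholly or partly sequence inside the annotated gene. The 250 bases before the ALDOA starts chr16:30064279 and chr16:30064497 also overlap. ACGTG was present before each ALDOA start, so the starts are not independent.

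Counted over all tables, distinct positions were densest in ENO1 (7.29 per kb) and GAPDH (7.19 per kb). Per kb of annotated span, the 4 tables listed 1.92 to 3.56 positions in ENO1 and 2.02 to 4.05 in GAPDH, ranges that overlap. They were followed by TPI1 (0.522 to 1.83 per kb), ALDOA (0.953 to 2.22), PGAM1 (0.549 to 1.24), LDHA (0.570 to 0.855) and PKM (0.396 to 0.823), each overlapping its neighbour in this order. ALDOA also overlapped ENO1 and GAPDH, and the other 4 did not. LDHB, with 0.106 to 0.359 per kb, and GPI and PGK1, with at most 0.116 and 0.0412, were lowest, and the GENCODE spans of LDHB (122516 bp) and PGK1 (218558 bp) reach far upstream of the RefSeq starts. LDHB had 0 entries upstream of that start in any table. In bulk libraries, fewer cells and fewer polymerases per cell cannot be told apart in such numbers.

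Some positions can belong to another annotated gene on the same strand. All 25 ALDOA positions also lie in AC093512.2 and all 80 LDHB positions in AC010197.2. Of the 18 PGK1 positions 3 lie in ATP7A, the copper transporter gene. Annotated pseudogenes of the 10 genes number 100, and 6 of them had an entry (4, 4, 6 and 3 in all); how the authors treated reads with more than 1 alignment is not given in the sources used here.

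**Figure D1:**
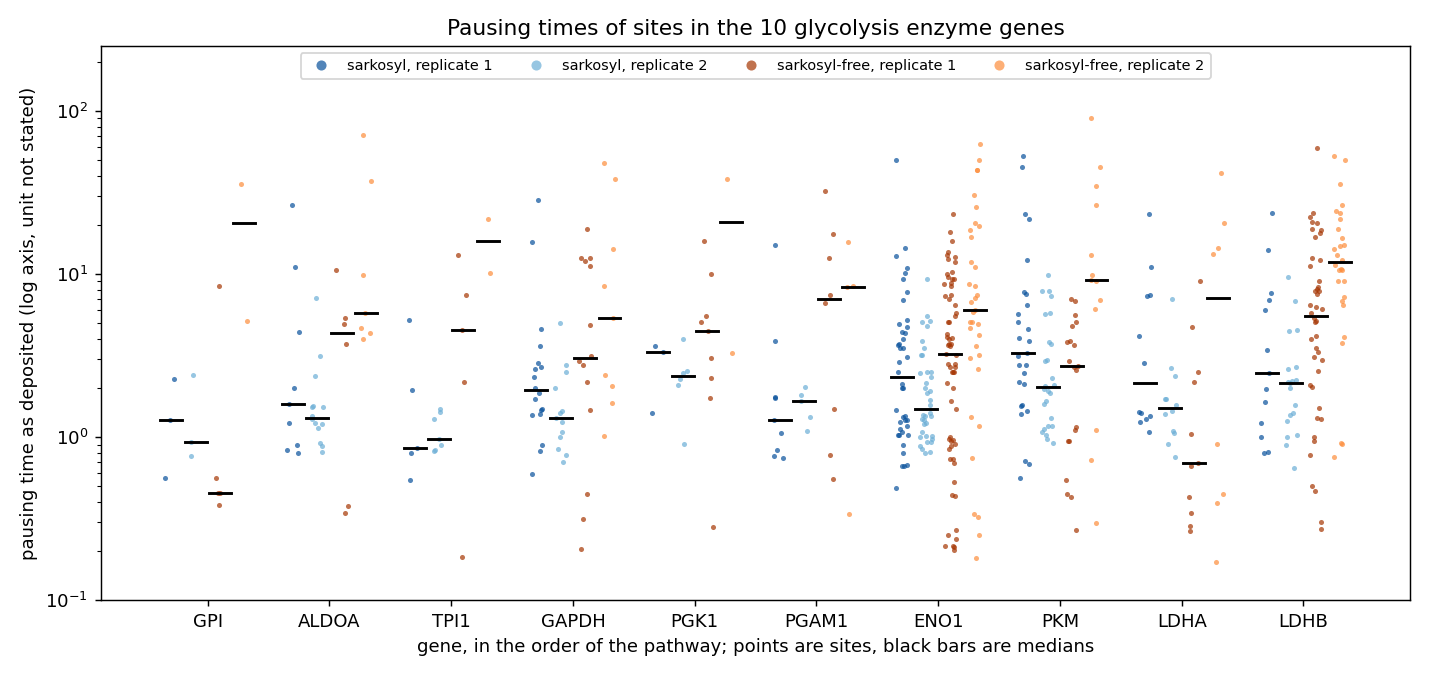
Pausing time as deposited (log axis, unit not stated) of every listed position in the 10 genes, in pathway order, for the 4 tables; points are positions and black bars are medians. Sarkosyl-free replicate 2 has the highest median in all 10 genes, as it does over all coding genes (8.93), while LDHA and GPI have short medians of 0.697 and 0.456 in sarkosyl-free replicate 1.

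Among the enzymes that rearrange and split the sugar, GPI, which isomerises glucose 6-phosphate, had 3, 3, 5 and 2 entries with median times of 1.28, 0.927, 0.456 and 20.4. The sarkosyl-free replicates lay on opposite sides of both sarkosyl tables. Its most often listed position, in the UTR near the 3′ end of the gene at chr19:34402343, had a time of 0.559 in sarkosyl replicate 1 and of 8.40 and 35.7 in the sarkosyl-free tables, and it also lies in AC092073.1. TPI1, triosephosphate isomerase, had 5, 7, 5 and 2 entries with medians of 0.858, 0.973, 4.52 and 15.9. Its sarkosyl values were below its sarkosyl-free values, an order that the medians over all coding genes also had (1.53, 1.37, 2.35 and 8.93). The TPI1 position 95 bp from the start was listed only without sarkosyl, at 7.46 and 10.1.

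ALDOA, the aldolase that splits fructose 1,6-bisphosphate, had 9, 14, 6 and 7 entries and medians of 1.59, 1.32, 4.32 and 5.78. Its position at 76 bp showed the largest buffer difference among the 13 positions found in all tables. The times there were 0.799, 0.816, 10.6 and 37.0. Sarkosyl replicates were nearly equal and both lay far below the sarkosyl-free ones. The position 10 bases downstream, at 86 bp, was listed only with sarkosyl, at 0.833 and 0.887.

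GAPDH, the dehydrogenase that makes NADH, had 18, 13, 14 and 9 entries and medians of 1.94, 1.32, 3.03 and 5.41. The RefSeq table's GAPDH start is internal to the GENCODE gene, and 8, 7, 5 and 2 entries lay upstream of it. In the 5′ UTR upstream, chr12:6534611 had the shortest reproducible times with sarkosyl of all the glycolysis positions, 0.590 and 0.708. Intronic positions at chr12:6535483 and chr12:6535500, 17 bp apart, were listed in all tables. The former had times of 1.5, 1.07, 12.5 and 14.3, and the latter 2.60, 1.41, 18.9 and 5.41, and in both the buffers did not overlap. A further intronic position, chr12:6536891, had times of 1.87, 2.50, 2.94 and 1.61; it had the smallest buffer difference of the 13 positions in all tables and was chosen after its values were seen.

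PGK1 and PGAM1, the kinase and the mutase of the next steps, had few entries. PGK1 had 3, 6, 9 and 2, with medians of 3.32, 2.37, 4.48 and 20.9. Of these entries, 2, 1, 1 and 1 lay upstream of its RefSeq start. The PGK1 position found in most tables, chrX:77910843, had times of 3.61 and 3.98 with sarkosyl and of 3.28 in sarkosyl-free replicate 2. That position lies upstream of the RefSeq start of PGK1 (chrX:78104248) and also in ATP7A, so its times cannot be assigned to PGK1 alone. PGAM1 had 9, 5, 8 and 4 entries, medians of 1.27, 1.66, 7.04 and 8.33, and none within 150 bp of its RefSeq start. Its 4 positions in both sarkosyl tables had times of 0.749 to 2.04, and none of its positions recurred between the sarkosyl-free tables. The coding-exon position among them, chr10:97430973, had times of 0.769 and 1.33.

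ENO1, enolase, had the most entries, 42, 38, 65 and 35, with medians of 2.32, 1.49, 3.23 and 6.02. Of its positions 5 were in all tables, more than in any other of the 10 genes. At 38 bp the times were 1.17, 1.34, 0.907 and 0.182, and at 61 bp they were 3.98, 9.35, 2.68 and 7.46, so the position 23 bp further in had the longer time in each table. In the 5′ UTR between and beyond them, the positions at 43 bp (2.00 and 3.17) and 73 bp (4.41 and 1.91) were listed only with sarkosyl. Deeper in the gene, the intronic positions at 3695 and 10211 bp had times of 7.75, 3.51, 10.0 and 1.18 and of 1.02, 1.21, 0.730 and 3.64. In both, the sarkosyl-free replicates differed by more than the sarkosyl ones. The position at 14657 bp, in a coding exon, varied less, with 2.00, 3.91, 3.17 and 5.10, and an intronic position at 7524 bp was among the shortest with sarkosyl, at 0.489 and 1.37.

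PKM, pyruvate kinase, had 27, 26, 20 and 13 entries and medians of 3.30, 2.02, 2.71 and 9.17. Its position at 58 bp had times of 2.79, 1.92, 2.68 and 9.09, with only sarkosyl-free replicate 2 apart from the rest. The longest reproducible time with sarkosyl of all the glycolysis positions was in a PKM intron 2863 bp from the start, 23.3 and 9.90. Without sarkosyl that position was not listed. The 62 PKM positions left an empty stretch of 11.1 kb, from 11.9 to 23.0 kb downstream of the start, over all 4 tables; it was picked out after the positions had been plotted.

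LDHA and LDHB encode subunits that mix in the lactate dehydrogenase tetramer. LDHA had 12, 12, 11 and 8 entries with medians of 2.14, 1.51, 0.697 and 7.12. At 52 bp its times were 1.07, 1.09, 0.284 and 0.172, and at 63 bp 2.87, 1.38, 0.431 and 0.447. Both LDHA positions were longer in both sarkosyl tables than in either sarkosyl-free table. A position 159 bp downstream of the second LDHA start, chr11:18396510, had times of 23.3, 2.65, 0.265 and 14.5, a spread within each buffer wider than that between them.

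LDHB had 13, 19, 44 and 28 entries with medians of 2.46, 2.16, 5.56 and 11.8. Of these, 9, 14, 41 and 25 were intronic. The 3 longest reproducible times without sarkosyl were all in LDHB introns, at 9131 bp (20.8 and 52.6), 7601 bp (18.5 and 50) and 5870 bp (11.2 and 35.7) from the start, and none of the 3 was listed with sarkosyl. With sarkosyl its longest reproducible position was in a coding exon at 3229 bp, 6.94 and 9.62. The LDHB position found in most tables, an intronic one at 7444 bp, had times of 6.02, 2.61 and 2.1 in the first 3 tables.

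**Figure D2:**
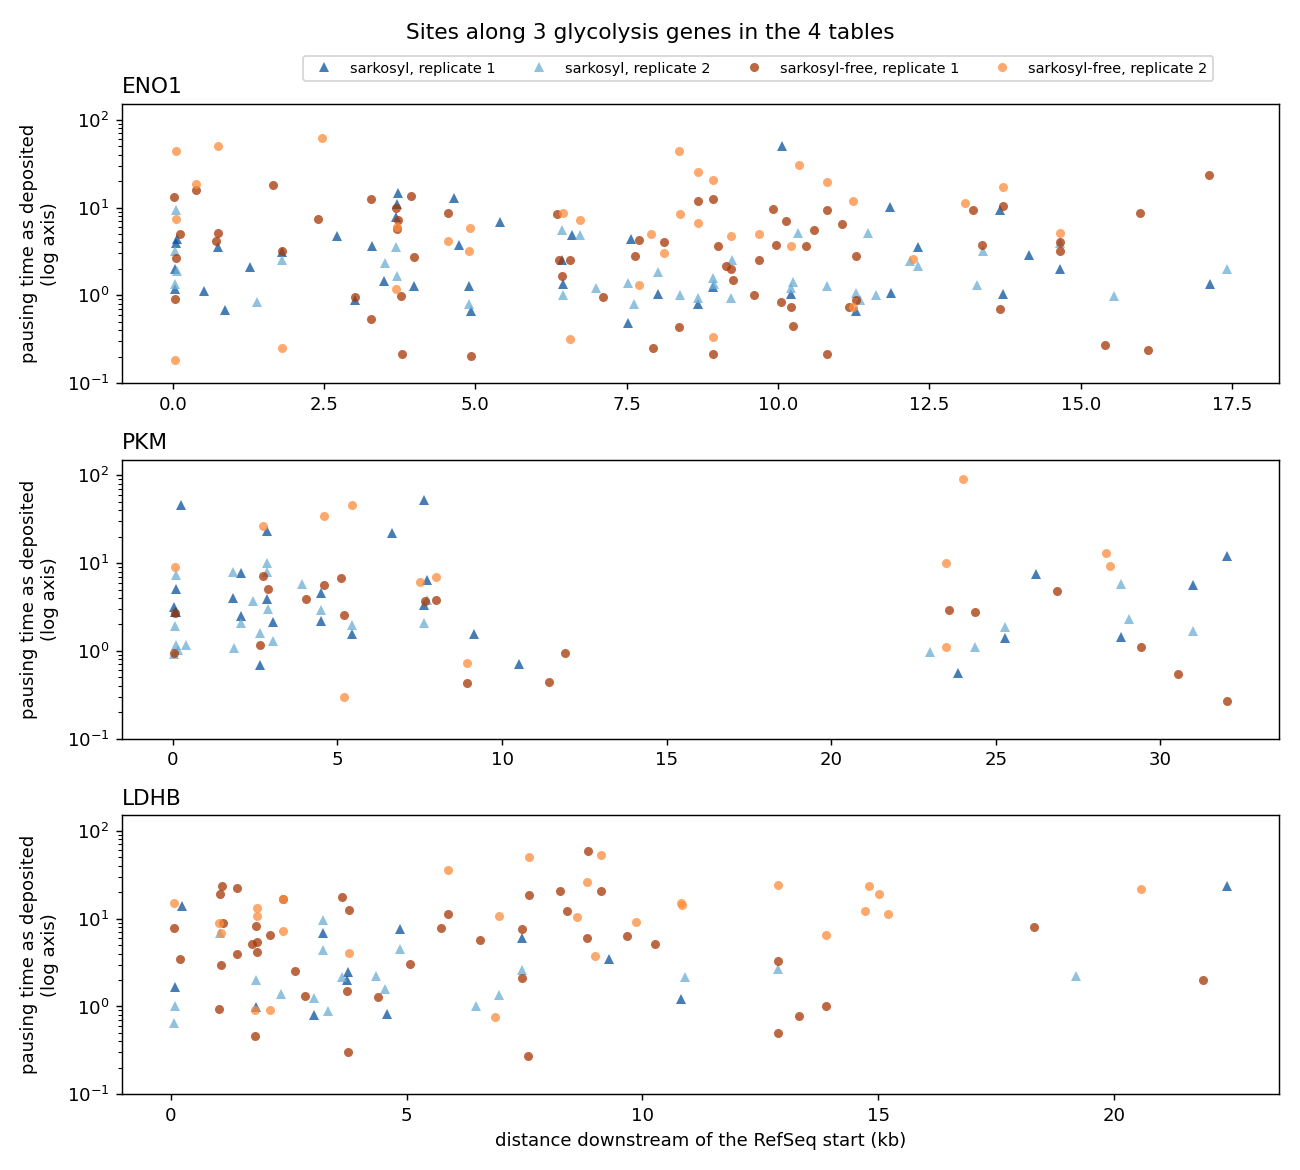
Pausing time as deposited (log axis) against distance downstream of the RefSeq start in kb, for ENO1, PKM and LDHB; triangles are sarkosyl tables and circles sarkosyl-free tables, with shades for the replicates. ENO1 positions run along the whole gene, PKM has none between 11.9 and 23.0 kb, and LDHB carries more circles than triangles.

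Against all protein-coding genes of the same table, the glycolysis positions were not clearly apart in pausing time. Their medians were 2.12, 1.55, 3.51 and 8.85, and those of coding-gene positions 1.53, 1.37, 2.35 and 8.93. The log2 difference was 0.33 ± 0.21 with sarkosyl (SD, n = 2) and 0.28 ± 0.42 without (SD, n = 2), where replicates 1 and 2 gave 0.58 and -0.01. Without LDHB, the sarkosyl-free value was 0.02. The positions of a gene share that gene and are not replicates, so these values carry no test.

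Larger shares of the positions recurred between tables than over all coding genes, a difference that was not tested. Of the 425 positions 308 were in 1 table (72.5%, against 80.5% of 94421 positions in coding genes), 67 in both sarkosyl tables (15.8% against 9.79%) and 47 in both sarkosyl-free tables (11.1% against 7.88%). All 4 tables shared 13 (3.06% against 1.52%). The 67 were 47.5% and 46.9% of the entries of sarkosyl replicates 1 and 2, and the 47 were 25.1% and 42.7% of those of the sarkosyl-free replicates. At shared positions the rank correlation of times between replicates was 0.667 with sarkosyl (67 positions) and 0.522 without (47 positions), and between buffers it ran from -0.22 to 0.11 over 18 to 32 positions. These describe positions that share libraries and genes. Whether read number moves with recurrence was not tested, since no read numbers are used here.

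By annotation, exons of basic protein-coding transcripts held 33.3%, 39.2%, 25.1% and 25.5% of the entries, against 51.2%, 44.9%, 35.8% and 38.2% over coding genes, and everything else in a span is called intron here. The share differed between genes. Introns held 35, 27, 55 and 29 of the 42, 38, 65 and 35 ENO1 entries. In LDHB they held 9, 14, 41 and 25 of 13, 19, 44 and 28. In ALDOA, exons held 6, 10, 6 and 5 of 9, 14, 6 and 7. Exons make up 6.02% of the span of the 10 genes and 5.77% of that of coding genes with an entry. In LDHB and PGK1, which have the longest spans, they make up 1.29% and 2.28%, and in GAPDH 50%. Entries within 300 bp downstream of any annotated start of the gene made up 33.3%, 36.4%, 23.5% and 25.5%, against 45.3%, 35.8%, 24.2% and 24.2%. The mean of that share was 34.8% with sarkosyl and 24.5% without, and with RefSeq starts alone it was 19.0% and 14.3%. By RefSeq starts the values were 17.0%, 21.0%, 12.3% and 16.4%. Over coding genes they were 31.8%, 24.4%, 15.8% and 15.8%, there counted from the start of any gene. Within 300 bp of the 5′ end of the span they were 4.26%, 4.90%, 2.14% and 3.64%, against 27.5%, 20.9%, 13.9% and 13.9%.

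The base at the listed position differed between the tables in these genes as it did over all coding genes. The base was known for 65, 75, 68 and 46 entries. Cytosine made up 78.5%, 76.0%, 57.4% and 26.1% of them, and guanine 16.9%, 20.0%, 41.2% and 71.7%. Over coding genes cytosine made up 73.4%, 72.0%, 50.5% and 22.4%. In both sets the sarkosyl-free replicates lay further from each other than sarkosyl-free replicate 1 lay from either sarkosyl table. Without sarkosyl, cytosine entries of the glycolysis genes had shorter times than guanine ones, by a log2 difference of medians of -1.62 and -1.80, against -0.71 and -1.66 over coding genes. With sarkosyl the difference was -0.48 and 0.45, so its sign differed between replicates.

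**Figure D3:**
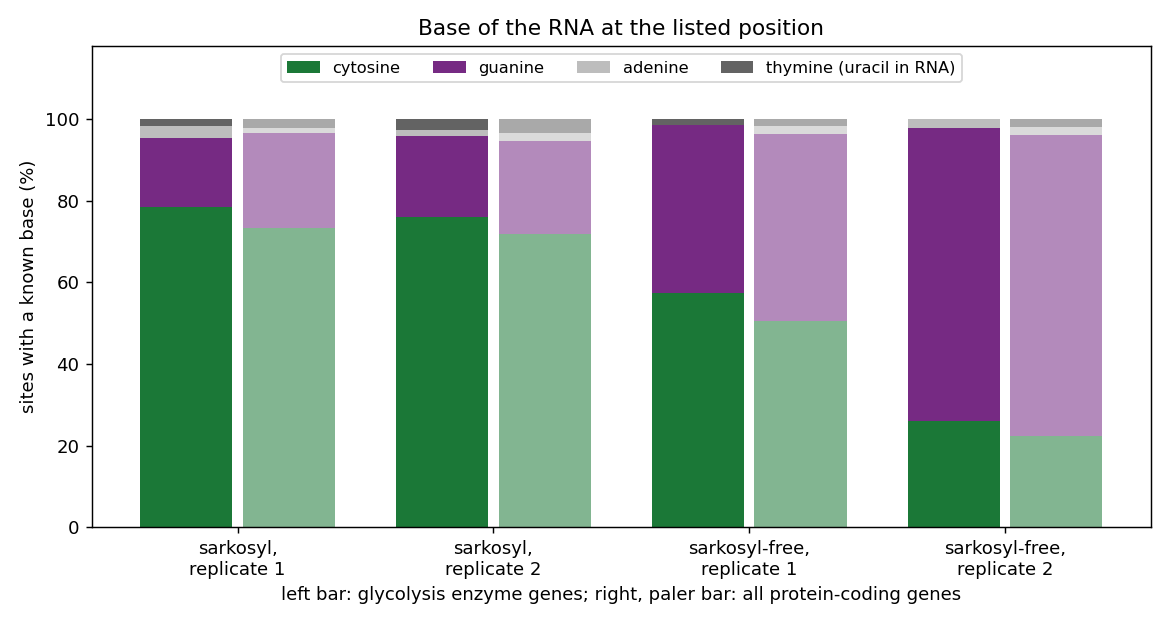
Percent of entries with each base of the RNA at the listed position, for the 10 genes (left bars, 46 to 75 entries with a known base) and for all protein-coding genes (right, paler bars) in the 4 tables. Cytosine goes from 78.5% in sarkosyl replicate 1 to 57.4% and 26.1% in sarkosyl-free replicates 1 and 2, with coding genes close beside.

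In places the buffers listed neighbouring positions rather than the same one. Of 45 positions in both sarkosyl tables and no other, and 30 in both sarkosyl-free tables and no other, 6 pairs lay within 50 bp of each other, in ENO1 and LDHB. The pairs are not all separate, since the LDHB position chr12:21656037 enters more than 1 of them. Such pairs were not counted over all coding genes. At the LDHB start, the guanine at 75 bp had times of 7.81 and 15.2 without sarkosyl, and the cytosine 4 bp further had 1.64 and 1.0 with it. In ENO1, chr1:8870008 had times of 11.9 and 6.71 without sarkosyl, and chr1:8870011, 3 bp away, had 0.804 and 0.927 with it. The times with sarkosyl were the shorter in both of these pairs, which were chosen after their values were seen, but not in all 6. In ENO1, chr1:8876875 had 3.12 and 2.51 with sarkosyl and chr1:8876883 had 3.23 and 0.25 without. In LDHB, chr12:21656037 had 0.995 and 1.99 with sarkosyl, longer in each replicate than chr12:21656052 without it (0.465 and 0.921).

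The design compares the run-on buffers, and the comparison was made on 3 measures with limma across all features, with 2 tables a buffer and Benjamini-Hochberg adjustment at 0.05. No glycolysis gene or position passed the threshold on any of them. The p-values rest on the spread between biological duplicates of 1 cell line.

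The first measure was the share of a table's positions that a gene holds, log2 of its number plus 0.5 per 10000 entries in coding genes. Among these genes PKM and LDHB had the smallest p-values, with opposite signs. PKM made up 10.1 and 9.64 of 10000 coding-gene entries with sarkosyl and 4.92 and 5.34 without. LDHB showed the opposite order, with 4.88 and 7.04 against 10.8 and 11.5. Neither gene's buffers overlapped. On the log2 scale the difference of sarkosyl minus sarkosyl-free was 0.93 (SE 0.25, limma adjusted p = 0.109) for PKM and -0.90 (SE 0.27, limma adjusted p = 0.129) for LDHB.

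TPI1 (log2 difference 1.02, SE 0.44) and ALDOA (0.98, SE 0.42) had higher shares with sarkosyl too, each with a limma adjusted p of 0.225 and 0.226 in that order. GAPDH (0.66), LDHA (0.57), PGAM1 (0.46), PGK1 (0.20), GPI (0.15) and ENO1 (-0.02) had larger adjusted p-values. Of the 10 genes 8 had a higher share with sarkosyl, with a median difference of 0.51, against 49.7% of genes and a median of -0.01 over all 3005 genes tested. None of the 10 was called, where 0.0666% of all genes were, and 4 had an unadjusted p under 0.05 (3 higher, 1 lower), where 21.5% of all genes had (11.5% higher, 9.95% lower). The buffers did not overlap in 5 genes with higher values under sarkosyl (PKM, TPI1, ALDOA, GAPDH and LDHA; 27.6% of all genes) and in LDHB, the 1 gene with lower values (28.7%).

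The calls on PKM and LDHB differed between settings. Among genes with a mean of at least 10 positions, PKM (limma adjusted p = 0.0106) and LDHB (limma adjusted p = 0.0125) passed, as did 26.2% of the 520 genes. With positions beyond 300 bp of annotated starts only, PKM differed by 1.46 and passed (limma adjusted p = 0.0126), as did 8.31% of genes, and LDHB did not.

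**Figure D4:**
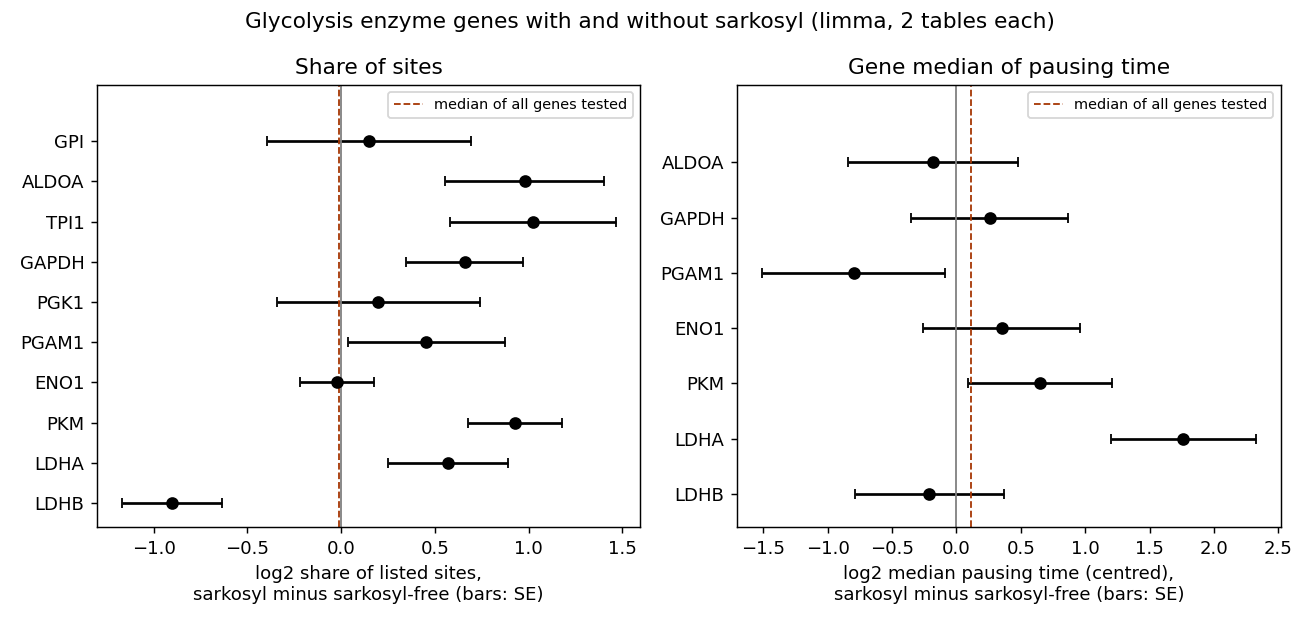
Log2 difference of sarkosyl minus sarkosyl-free tables with standard error bars, for the share of listed positions (left, 10 genes) and the centred gene median of pausing time (right, the 7 genes tested); the dashed line is the median of all genes tested. PKM at 0.93 and LDHB at -0.90 stand on opposite sides on the left, and LDHA at 1.76 stands apart on the right.

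The second measure was the log2 median pausing time of a gene, relative to the median gene of its table, for genes with at least 3 positions in every table. GPI, TPI1 and PGK1 were below that number and were not tested. LDHA was the only one of the 7 others with an unadjusted p under 0.05. Its centred values were 0.28 and 0.06 with sarkosyl and -1.85 and -1.34 without, a difference of 1.76 (SE 0.56, limma adjusted p = 0.467). Without centring its difference was 0.16, and the median difference over all genes moved from 0.11 to -1.49.

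PKM also had both sarkosyl values (0.99 and 0.48) above both sarkosyl-free values (0.11 and 0.06), and its difference of 0.65 (SE 0.56) turned to -0.95 without centring. ENO1 (0.35), GAPDH (0.26), ALDOA (-0.18), LDHB (-0.21) and PGAM1 (-0.80) overlapped between the buffers, and ENO1 and GAPDH were also negative without centring. Of the 7 genes 0 were called (0% of 1562 genes), and 1 had an unadjusted p under 0.05, where 9.03% of all genes had (7.55% higher, 1.47% lower). The buffers did not overlap in 2 of the 7 with higher values under sarkosyl (22.9% of all genes) and in 0 with lower values (18%). The median difference of the 7 was 0.26, against 0.11 over all genes.

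The LDHA value rested on positions near its starts. Within 300 bp of an annotated start its median times were 2.87, 1.56, 0.387 and 0.422, over 5, 7, 6 and 4 positions. Further in they were 1.42, 1.45, 2.17 and 16.9, over 7, 5, 5 and 4 positions. Near the starts the sarkosyl tables were the longer and further in they were the shorter. These times are not centred, and coding-gene positions beyond 300 bp also had shorter medians with sarkosyl (1.73, 1.49, 2.52 and 9.62). With positions beyond 300 bp only, the fitted difference of LDHA was -0.51 (SE 0.64, limma adjusted p = 0.850).

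The third measure was the log2 time of single positions listed in all 4 tables, of which there were 2967, with 13 in the glycolysis genes. ALDOA at 76 bp had 22.4-fold shorter centred times with sarkosyl (log2 difference -4.48, SE 0.86, limma adjusted p = 0.155). GAPDH at chr12:6535483 was 9.61-fold shorter (-3.26, SE 0.72, limma adjusted p = 0.155), and 0.155 was the smallest adjusted p over all positions tested. The adjustment gives that value to many positions of unequal unadjusted limma p (0.00225 at ALDOA, 0.00446 at GAPDH). It therefore does not place ALDOA or GAPDH first among all positions. LDHA at 52 bp was 5.39-fold longer with sarkosyl (2.43, SE 0.75, limma adjusted p = 0.173) and at 63 bp 4.98-fold longer (2.32, SE 0.78, limma adjusted p = 0.177).

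The quartiles of the authors' own estimate frame these differences. At ALDOA 76 bp they ran from 0.525 to 1.23 and from 0.519 to 1.32 with sarkosyl, and from 6.94 to 15.6 and from 26.3 to 50 without. At LDHA 52 bp they ran from 0.651 to 1.81 and from 0.637 to 1.98 with sarkosyl, and from 0.142 to 0.553 and from 0.10 to 0.288 without. The quartile ranges of the buffers did not overlap at either position, nor at GAPDH chr12:6535483 (at most 2.52 with sarkosyl, at least 8.55 without). At LDHA 63 bp they did overlap. The lower quartile there was 0.776 in sarkosyl replicate 2, and the upper quartiles without sarkosyl were 0.867 and 0.923. These quartiles are of times as deposited and not centred, and such overlap was not counted over all positions tested.

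The other 9 positions had limma adjusted p-values from 0.224 to 0.935. GAPDH at chr12:6535500 differed by -2.26, LDHA at chr11:18396510 by 2.14, ENO1 at 38 bp by 1.76, PKM at 58 bp by -0.96, ENO1 at 3695 bp by 0.74, at 61 bp by 0.58 (SE 0.88), at 10211 bp by -0.41 and at 14657 bp by -0.39. Of the 13 positions 0 were called (0% of all positions), and 4 had an unadjusted p under 0.05 (2 longer, 2 shorter with sarkosyl), where 23.2% of all positions had (12% and 11.2%). The buffers did not overlap in 3 longer positions (31.6% of all) and 3 shorter ones (25.7%). The number of positions with differences was near the background of the tables.

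ALDOA at 76 bp passed the threshold after quantile normalization of the tables (limma adjusted p = 0.0420), as did 5.33% of positions. It also passed without sarkosyl-free replicate 1 (0.00789, where 53.8% of positions passed) or without sarkosyl-free replicate 2 (0.0271, where 22.2% passed). Without sarkosyl replicate 1 or 2 its limma adjusted p was 0.981 and 0.470 in that order. GAPDH at chr12:6535483 (limma adjusted p = 0.0107 and 0.0299) and LDHA at 52 bp (0.0115 and 0.0451) passed in the same 2 settings without a sarkosyl-free replicate. LDHA at 63 bp, PKM at 58 bp and ENO1 at 38, 3695 and 10211 bp passed without sarkosyl-free replicate 1 only, and GAPDH at chr12:6535500 and LDHA at chr11:18396510 without sarkosyl-free replicate 2 only.

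**Figure D5:**
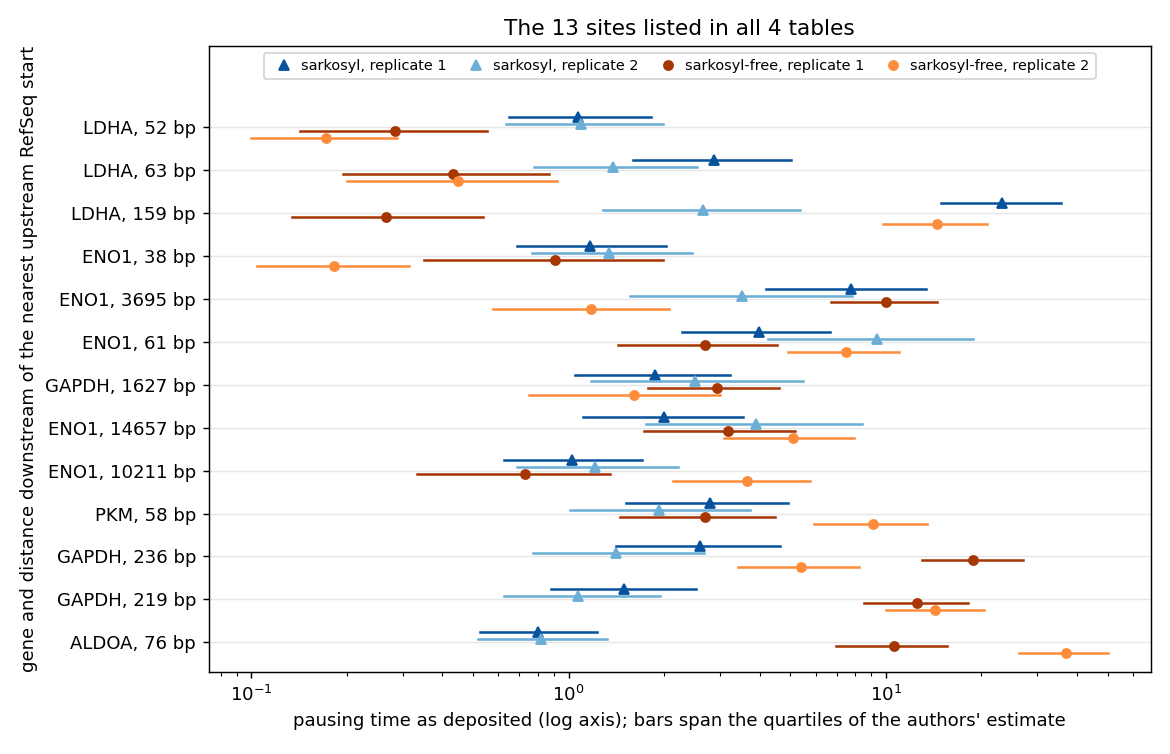
Pausing time as deposited (log axis) of the 13 positions listed in all 4 tables, labelled by gene and distance downstream of the nearest upstream RefSeq start; bars span the quartiles of the authors' estimate. Sarkosyl markers lie right of the sarkosyl-free ones at LDHA 52 and 63 bp and left of them at GAPDH 219 bp and ALDOA 76 bp.

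Of 32 other genes of the pathway, its regulators and transporters, 23 had an entry and 9 had entries in all 4 tables. Gene medians could be tested for 3, and 0 had an unadjusted p under 0.05, where 9.03% of all genes had: PFKP, a phosphofructokinase (log2 difference 0.44, limma adjusted p = 0.892), PFKFB3, which makes its activator fructose 2,6-bisphosphate (0.63, limma adjusted p = 0.823), and SLC16A1, a lactate transporter (0.64, limma adjusted p = 0.870). Shares could be tested for 6, of which 0 were called and 1 had an unadjusted p under 0.05, where 21.5% of all genes had. PFKP, with 13, 14, 9 and 6 entries, had a difference of 1.06 (SE 0.32, limma adjusted p = 0.138). SLC2A1, the glucose transporter, had 6, 6, 6 and 2 entries (0.92, limma adjusted p = 0.246), and MPC1, of the mitochondrial pyruvate carrier, 5, 3, 3 and 1 (1.17, limma adjusted p = 0.309). The hexokinase genes HK1 and HK2 had 1, 1, 1 and 0 and 1, 3, 5 and 1 entries.

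The 4 centred medians of 256 coding genes with at least 10 positions in every table were set against the median of the 7 glycolysis genes tested on gene medians. Nearest were RPL17-C18orf32 (Euclidean distance 0.197 on the log2 scale), SCAF4 (0.267) and MCL1 (0.350), over 4 tables. Outside the sense strand, the spans of the 10 genes held 16, 6, 9 and 1 antisense entries. The 5000 bp downstream of the genes held 55, 49, 56 and 42 entries on the sense strand.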

How the data were processed

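Pausing times of 4 tables were analysed, each fitted by the authors over 4 run-on libraries of HEK293 cells (2 tables a buffer, 16 libraries). Per the submitters' processing notes, cutadapt 1.14, HISAT2 2.1.0, SAMtools, bedtools and the build hg38 were used. Per the file headers, each deposited row holds a position, a strand, summary statistics of an estimate and a pausing time. The latter equals 1 over the deposited median rate, which is rounded to 3 decimals, so long times take few distinct values. The model, the rule for listing positions and the time unit are not given in the sources used here. Tables were tied to buffer and replicate by their names, and which libraries entered each was inferred from the titles. No value column was left unmapped.

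Positions were assigned to GENCODE release 29 spans on the same strand. The base at a listed position was cytosine or guanine for nearly all sites on both strands alike, which sets the counting as from 1; this was checked after the data were seen. Log2 values were fitted with limma 3.58.1 (R 4.3.3) across all genes or positions, with each table centred on its median except for shares, and the fits were tested on simulated data. Genes needed at least 3 positions in every table, or a mean of 3 for shares, with 0.5 added to the number. Tables were handled in Python 3.11.15 with pandas 2.3.3, numpy 2.4.6 and scipy 1.17.1, and plots drawn with matplotlib 3.10.9. With 2 tables against 2, an exact permutation test cannot go below 0.333, so none was used.

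The genes and lists were chosen with earlier results of these data known. Named are all 10 genes; other pathway genes past the threshold or, if none, the 3 with the smallest p; the 12 positions in all tables with the largest differences; the 3 longest and 3 shortest times per buffer among positions in both replicates; and each gene's most listed position. Alternatives changed the filters, centring, normalization, pseudocount and distance to starts, or left out a table; alternatives with positions in 1 coding gene only and with RefSeq starts were added after seeing the data. Among the 4 tables the labels give no batch, and batch and buffer cannot be told apart where they coincide.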

Additional observations from a re-analysis of the deposited data

How the results depend on the processing

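The read depth behind a position is unknown and limits what a missing entry can mean. Calls moved between settings both over all features and among the glycolysis genes and positions, and the cause was not tested. For gene medians, 0 genes were called with limma in the main fit (141 at an unadjusted p under 0.05) and in 12 of 13 alternatives; leaving out 1 table in turn gave 0 to 48, the latter without sarkosyl-free replicate 1. For single positions, 0 were called (689 at an unadjusted p under 0.05); quantile normalization gave 158, and leaving out 1 table gave 0 to 1597, with 1597 without sarkosyl-free replicate 1 and 660 without sarkosyl-free replicate 2. A lone table in such a fit is assumed to vary like the other buffer. For shares, 2 genes were called (0 higher with sarkosyl, 645 at an unadjusted p under 0.05). That number was 8 with a pseudocount of 0.1, 136 with a mean of at least 10 positions, 164 beyond 300 bp of annotated starts and 10 with positions in 1 coding gene only. It was 0 with a pseudocount of 1, without a filter, centred on the median over genes, without the trend, and 0 to 0 when 1 table was left out. Under the filter of at least 10 positions 76 of the 136 were higher with sarkosyl, and beyond 300 bp 120 of the 164.

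With the replicate number as a replicate block, 0 genes were called for gene medians, 161 positions, and 216 genes for shares, PKM and LDHB (adjusted p = 0.0474 and 0.0403) and ALDOA at 76 bp (adjusted p = 0.0074) among them. The numbers did not pair the tables: correlated over features, replicate 1 minus 2 of either buffer gave 0.06, 0.01 and -0.02 for gene medians, positions and shares.

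The share of entries near starts was 34.8% and 24.5% with and without sarkosyl, 4.58% and 2.89% by the 5′ end of the span, and 19.0% and 14.3% by RefSeq starts. The median relative to coding genes moved by less than its SD in all alternatives run. Of 329 alternative values for single genes and positions, 282 kept sign and side of the threshold, 20 kept the sign and passed it, and 27 changed sign. The sign changes for gene medians were PKM (-0.95), ENO1 (-1.25) and GAPDH (-1.34) without centring, GAPDH (-0.066) with the mean of log2 times, LDHB (0.045) with quantile normalization and LDHA (-0.51) beyond 300 bp. When 1 table was left out, ENO1 ran from -0.10 to 0.80, GAPDH from -0.23 to 0.74, LDHB from -0.57 to 0.15 and ALDOA from -0.87 to 0.50. For positions they were GAPDH at chr12:6536891 (-0.011 without centring) and ENO1 at 14657 bp (0.54 with quantile normalization). With 1 table left out, LDHA at chr11:18396510 ran from -0.69 to 4.96, GAPDH at chr12:6536891 from -0.37 to 0.62, ENO1 at 14657 bp from -0.84 to 0.059, at 10211 bp from -1.51 to 0.68, at 3695 bp from -0.86 to 2.35 and at 61 bp from -0.095 to 1.26. For shares they were ENO1 (0.21) beyond 300 bp, PGK1 (-0.069) with positions in 1 coding gene only and GPI (-0.0043) centred on the median over genes; with 1 table left out ENO1 ran from -0.10 to 0.057, PGK1 from -0.39 to 0.79 and GPI from -0.052 to 0.35. ALDOA and LDHB have no value with positions in 1 coding gene only, because all of their positions lie in a further coding gene.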

Other observations

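The 4 bases that end at the listed position recurred among the sequence windows of the glycolysis genes. The letters GTCC, with the listed base last, ended at 13.8% and 18.1% of the 65 and 72 windows of the sarkosyl tables and at 6.06% and 2.27% of the 66 and 44 windows of the sarkosyl-free tables. Over all coding genes the shares were 10.9%, 10.7%, 4.43% and 2.92%. At the other offsets within the windows GTCC stood at 0.452% to 1.07% of places in the glycolysis genes and at 0.552% to 0.691% over all coding genes. Those offsets are not matched for base, since listed positions are mostly cytosine with sarkosyl. The base before the listed one was cytosine in 51.0% to 58.7% of all windows with sarkosyl, by table and strand. Without sarkosyl it was cytosine in 26.4% to 28.1%. Whether GTCC exceeds what these base frequencies give was not tested. The letters were chosen after the windows had been seen, and windows of 1 gene share libraries, so no test was made. Examples from 4 genes, each listed in both sarkosyl tables and in neither of the others, are shown with the 4 letters in capitals (GENCODE release 29 transcripts, GRCh38).
ENO1, chr1:8871152-8871172, minus strand: gtgttcaGTCCcgctttaatg
GPI, chr19:34365252-34365272, plus strand: ccttctaGTCCcgccatggcc
LDHA, chr11:18408167-18408187, plus strand: agatcttGTCCtctggaagct
PKM, chr15:72231074-72231094, minus strand: gccatcaGTCCccaccaaggg
Their pausing times with sarkosyl were 0.489 and 1.37 in ENO1, 1.28 and 2.41 in GPI, 1.35 and 2.38 in LDHA, and 5.10 and 7.35 in PKM. The PKM window, in the 5′ UTR, had the longest times of the 4. GTCC also ended at the ALDOA position at 86 bp, listed only with sarkosyl. It ended likewise at GAPDH chr12:6536891, which was listed in all 4 tables at 1.87, 2.50, 2.94 and 1.61. The examples shown are therefore not the whole of such windows.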
